A study of Rattus norvegicus with 10 samples.

Results

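Carbonic anhydrases and bicarbonate transporters of the choroid plexus were followed in rats on a control or a high fat diet through 6 genes, CAR2, CA12, CA14, SLC4A2, SLC4A5 and SLC4A10, among the 32883 genes listed for each rat. The genes were found by symbol in the name column of the study's table of choroid plexus transcripts and linked by Ensembl identifier (Rnor_6.0) to the deposited values. All 6 passed the filter on low values, a mean of 1 on the rescaled TPM scale described next, and were among the 12198 genes tested. The animals were female Wistar rats of 27 weeks. The 5 control rats received a nutrient source-matched diet with 10% of the energy from fat, and the 5 HFD-fed rats a diet with 60% of the energy from fat, each for 21 weeks from the age of 6 weeks. The study chose its experimental animals by body weight, taking lighter control rats and heavier HFD-fed rats. The groups may therefore differ by this choice as well as by diet. The choroid plexus of the lateral and the fourth ventricles of each rat gave 1 library, with no pooling of animals.

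The choroid plexus epithelium secretes most of the cerebrospinal fluid (CSF), and bicarbonate is one of the ions that carry this fluid across the cell. Carbonic anhydrases turn carbon dioxide and water into bicarbonate and a proton, inside the cell (CAR2) or at its outer surface (CA12 and CA14), and inhibitors of these enzymes are used to lower CSF secretion. Transporters of the SLC4 family then move bicarbonate through the basolateral membrane (SLC4A2 and SLC4A10) and the luminal membrane (SLC4A5).

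The deposited unit was TPM, each gene's share of all transcripts after correction for its length. Since TPM is a share of a fixed total and transthyretin (TTR) alone took 32.2% to 39.7% of it, the TPM of every rat were brought to a common scale by median ratios over all rats, and the result is called rescaled TPM. The factor was 0.749 for control rat 1 and 0.945 to 1.13 for the other 9 rats. The number of reads per rat is unknown, and each library listed 16078 to 16703 genes above 0. Differences between the diets are log2 fold changes of rescaled TPM + 0.1, HFD against control, tested with limma, and p-values were adjusted by Benjamini-Hochberg over all 12198 genes. They measure the spread between rats in whole tissue, in which fewer cells of a type and less RNA per cell cannot be told apart.

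Control rat 1 was unlike the rest in properties that do not involve the diets. In rescaled TPM, 1845 of its genes differed over 2-fold from the median of the remaining animals, a number that was 172 to 235 for every other rat. TTR took 39.7% of its TPM, against 32.2% to 34.2% in the other control rats and 32.2% to 38.2% in the HFD-fed rats. The mean effective transcript length, obtained from FPKM and TPM, was 789 bases in this rat and 874 to 968 bases in the others. Diet comparisons of the 6 genes are given with all 10 rats and without control rat 1. This was set by the plan of the report and not decided from these properties, whose part in the results was not tested.

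The tissue matched its label. All 10 markers of the choroid plexus epithelium had a symbol and a TPM above 0 in every rat, with TTR as the most abundant. Their summed rescaled TPM was 535090 in control rat 1, 321518 to 331076 in the other control rats and 292856 to 409606 in the HFD-fed rats, nearly all of it TTR (530361 in control rat 1). The other markers did not follow TTR in control rat 1. Beside the median of the other 9 rats, 7 of the 10 were lower there (PRLR 44.0%, KL 64.7%, KCNJ13 66.6%, TMEM72 73.8%, OTX2 77.0%, CLDN2 85.9% and HTR2C 88.5%) and CLIC6 (115%), FOLR1 (131%) and TTR (166%) were higher. Of the markers of other cells, 4 of 6 for blood had a symbol (HBB, HBB-BS, HBA-A1 and HBA-A2, the last pairs being near-identical copies that can share reads), and their sum was 7777 in control rat 1, 3657 to 6913 in the other control rats and 3103 to 6387 in the HFD-fed rats. For ependyma, which lines the ventricles, 3 of 5 markers had a symbol and summed to 241, 191 to 204 and 174 to 200 in the same order. RGS5, the 1 of 5 markers of mural cells, was at 42.6 in control rat 1, 106 to 110 in the other control rats and 101 to 129 in the HFD-fed rats. PLVAP, the 1 of 6 for endothelium, was at 97.2 in control rat 1, 53.8 to 62.4 in the other control rats and 51.05 to 67.2 in the HFD-fed rats. DCN, the 1 of 6 for stroma, was at 116, 140 to 231 and 160 to 227, and the 2 of 7 macrophage markers, CD74 and LYZ2, summed to 432, 498 to 626 and 458 to 653. None of the named markers was listed at 0 in any rat. Symbols were at hand only for the most abundant genes, so values above 0 largely follow from the naming. By limma, 0 of the named markers had an adjusted p under 0.05, while KL and HTR2C of the epithelium were higher and CCDC113 of the ependyma lower in HFD-fed rats at an unadjusted p under 0.05, that is 2 of 10 and 1 of 3. Over all genes, 0% passed the adjusted test, and 3.78% were higher and 4.84% lower at an unadjusted p under 0.05. The same 3 markers passed that threshold without control rat 1, and only HTR2C did in TPM as deposited. The markers of oligodendrocytes, which also make CAR2, and of neurons and astrocytes had no symbol here and were not analysed, and the part of other cell types in the values was not tested.

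The promoter windows of CA12, CA14 and SLC4A10 are shown because among the 6 genes they had the lowest, the highest and the second lowest level in control rat 1 relative to the other rats, as described after the diets. Each window runs from 250 bases before to 50 bases after the start of the RefSeq gene on the GRCr8 build, 5′ to 3′ on the strand of the gene, and is not on the build of the deposited values. The CA12 window lies at chr8:76169565-76169864 on the plus strand, CA14 at chr2:186138115-186138414 on the minus strand and SLC4A10 at chr3:67073653-67073952 on the plus strand. Capitals mark matches on either strand to 5 short motifs: TAATCC (the core bound by OTX2, a transcription factor of this epithelium), TGACGTCA (the cyclic AMP response element), TATAAA (the TATA box), GGGCGG (the GC box) and CACGTG (the E-box).
CA12: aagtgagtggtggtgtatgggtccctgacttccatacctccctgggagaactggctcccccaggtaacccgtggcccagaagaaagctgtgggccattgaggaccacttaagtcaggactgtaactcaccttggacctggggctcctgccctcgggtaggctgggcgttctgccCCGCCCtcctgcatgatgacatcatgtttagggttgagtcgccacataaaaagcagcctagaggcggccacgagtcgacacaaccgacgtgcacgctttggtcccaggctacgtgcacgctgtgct
CA14: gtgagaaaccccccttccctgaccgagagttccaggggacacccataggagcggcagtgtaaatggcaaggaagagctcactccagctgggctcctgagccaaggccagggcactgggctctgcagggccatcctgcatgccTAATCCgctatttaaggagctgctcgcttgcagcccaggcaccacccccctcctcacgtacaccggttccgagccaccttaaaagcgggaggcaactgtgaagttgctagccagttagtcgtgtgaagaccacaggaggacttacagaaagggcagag
SLC4A10: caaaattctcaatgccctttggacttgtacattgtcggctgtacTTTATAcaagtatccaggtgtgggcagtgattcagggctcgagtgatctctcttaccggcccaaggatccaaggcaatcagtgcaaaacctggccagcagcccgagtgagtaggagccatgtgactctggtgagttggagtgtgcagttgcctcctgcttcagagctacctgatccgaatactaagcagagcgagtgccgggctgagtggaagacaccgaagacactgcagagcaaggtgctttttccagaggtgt
CA12 held 1 GC box, read on the opposite strand, which 33.1% of all 33469 RefSeq promoter windows of this length also held. CA14 held 1 TAATCC match, present in 7.17% of all windows, with its first base 108 bases before the start. SLC4A10 held 1 TATA box sequence on the opposite strand, 206 bases before the start, a motif present in 14.2% of all windows. The windows of SLC4A2 (chromosome 4, minus strand) and SLC4A5 (chromosome 4, plus strand) held none of the 5 motifs, while 1.83% of all windows held TGACGTCA and 6.42% CACGTG. The windows also differed in base composition. SLC4A2 had 75% G and C with 39 CG steps, against 59% and 13 in CA12, 59% and 9 in CA14, 54% and 5 in SLC4A5 and 52.3% and 8 in SLC4A10, and the medians of all windows were 51.7% and 7. A match is a description of the letters in the window, and 5 of the 6 genes had a window in the table.

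CAR2 was the most abundant of the 6 genes and ranked 50 among the genes tested by its mean rescaled TPM. CAR2 (ENSRNOG00000009629) encodes a cytosolic carbonic anhydrase. Its rescaled TPM was 1045, 1450, 1319, 1324 and 1223 in control rats 1 to 5, and 1327, 1570, 1404, 1466 and 1291 in HFD-fed rats 1 to 5. The diets overlapped, with control rat 1 the lowest of all rats and the second HFD-fed rat the highest. The means were 1272 ± 151 (SD, n = 5) and 1411 ± 112 (SD, n = 5), a log2 fold change of 0.15 (standard error 0.095, 95% interval -0.06 to 0.37, limma adjusted p = 0.585, exact permutation p = 0.143). Without control rat 1 the control mean was 1329 ± 93.2 (SD, n = 4) and the log2 fold change 0.09 (95% interval -0.08 to 0.25, limma adjusted p = 0.671, exact permutation p = 0.270).

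CA12 (ENSRNOG00000017766, rank 222) encodes a carbonic anhydrase that is anchored in the membrane with its active site outside the cell. The rescaled TPM of CA12 was 159, 498, 478, 478 and 458 in control rats 1 to 5, and 432, 481, 467, 513 and 480 in HFD-fed rats 1 to 5. Apart from control rat 1, the rats of the 2 diets lay in the same narrow range, and the diets overlapped. The log2 fold change was 0.31 with all rats (95% interval -0.31 to 0.92, limma adjusted p = 0.648, exact permutation p = 0.563), from means of 414 ± 143 (SD, n = 5) in control and 475 ± 29.1 (SD, n = 5) in HFD-fed rats. Leaving out control rat 1 gave a control mean of 478 ± 16.4 (SD, n = 4) and turned the sign, to -0.01 (95% interval -0.13 to 0.11, limma adjusted p = 0.959).

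CA14 (ENSRNOG00000023162, rank 387), a membrane-bound enzyme of the same kind, was the only one of the 3 carbonic anhydrases at its highest in control rat 1. Rescaled TPM of CA14 were 339, 256, 241, 280 and 221 in control rats 1 to 5, and 239, 265, 237, 250 and 252.2 in HFD-fed rats 1 to 5. The HFD-fed rats fell inside the range of the control rats. The means were 268 ± 45.5 and 248 ± 11.3 (SD, n = 5 each) and the log2 fold change -0.09 (95% interval -0.32 to 0.14, limma adjusted p = 0.700, exact permutation p = 0.476). The sign turned with the scaling, to 0.0096 in TPM as deposited, and without control rat 1 the value was -0.003 (limma adjusted p = 0.990).

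SLC4A2 (ENSRNOG00000014347, rank 281) encodes an anion exchanger that trades bicarbonate for chloride at the basolateral side. For SLC4A2, rescaled TPM was 363, 364, 352, 356 and 356 in control rats 1 to 5, and 336, 345, 347, 344 and 414 in HFD-fed rats 1 to 5. In rescaled TPM the control rats were the tightest set of values of any of the 6 genes, with control rat 1 among them, while the fifth HFD-fed rat was far above the other HFD-fed rats, which were all below the control rats. The means were 358 ± 5.16 and 357 ± 31.9 (SD, n = 5 each) and the log2 fold change -0.01 (95% interval -0.15 to 0.14, limma adjusted p = 0.968, exact permutation p = 0.976). TPM as deposited, with control rat 1 at 272, below a range of 362 to 369 in its group (control SD 42.7), gave 0.10, and leaving out control rat 1 from the rescaled values gave -0.003. Without HFD-fed rat 5 the rescaled values gave -0.06 (limma unadjusted p = 0.252).

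SLC4A5 (ENSRNOG00000010378, rank 235) encodes an electrogenic sodium bicarbonate cotransporter of the luminal membrane. For SLC4A5, rescaled TPM was 275, 466, 418, 426 and 431 in control rats 1 to 5, and 407, 417, 466, 447 and 494 in HFD-fed rats 1 to 5. Control rat 1 was the lowest by a wide gap, and the other control rats overlapped with the HFD-fed rats. The means were 403 ± 74.0 and 446 ± 35.5 (SD, n = 5 each) and the log2 fold change 0.17 (95% interval -0.13 to 0.46, limma adjusted p = 0.622, exact permutation p = 0.325). With control rat 1 left out, the control mean was 435 ± 21.3 (SD, n = 4) and the log2 fold change 0.03 (95% interval -0.11 to 0.18, limma adjusted p = 0.878).

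SLC4A10 (ENSRNOG00000005307, rank 425) encodes a sodium-dependent bicarbonate transporter that brings bicarbonate into the cell from the blood side. Its rescaled TPM was 113, 247, 224, 242 and 240 in control rats 1 to 5, and 234, 257, 266, 241 and 258 in HFD-fed rats 1 to 5. Control rat 1 was again the lowest, and 3 HFD-fed rats were above all control rats. The means were 213 ± 56.4 and 251 ± 13.3 (SD, n = 5 each) and the log2 fold change 0.29 (95% interval -0.14 to 0.72, limma adjusted p = 0.589, exact permutation p = 0.0714). Without control rat 1 the control mean was 238 ± 10.1 (SD, n = 4) and the log2 fold change 0.08 (95% interval -0.04 to 0.19, limma adjusted p = 0.590, exact permutation p = 0.143).

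**Figure D1:**
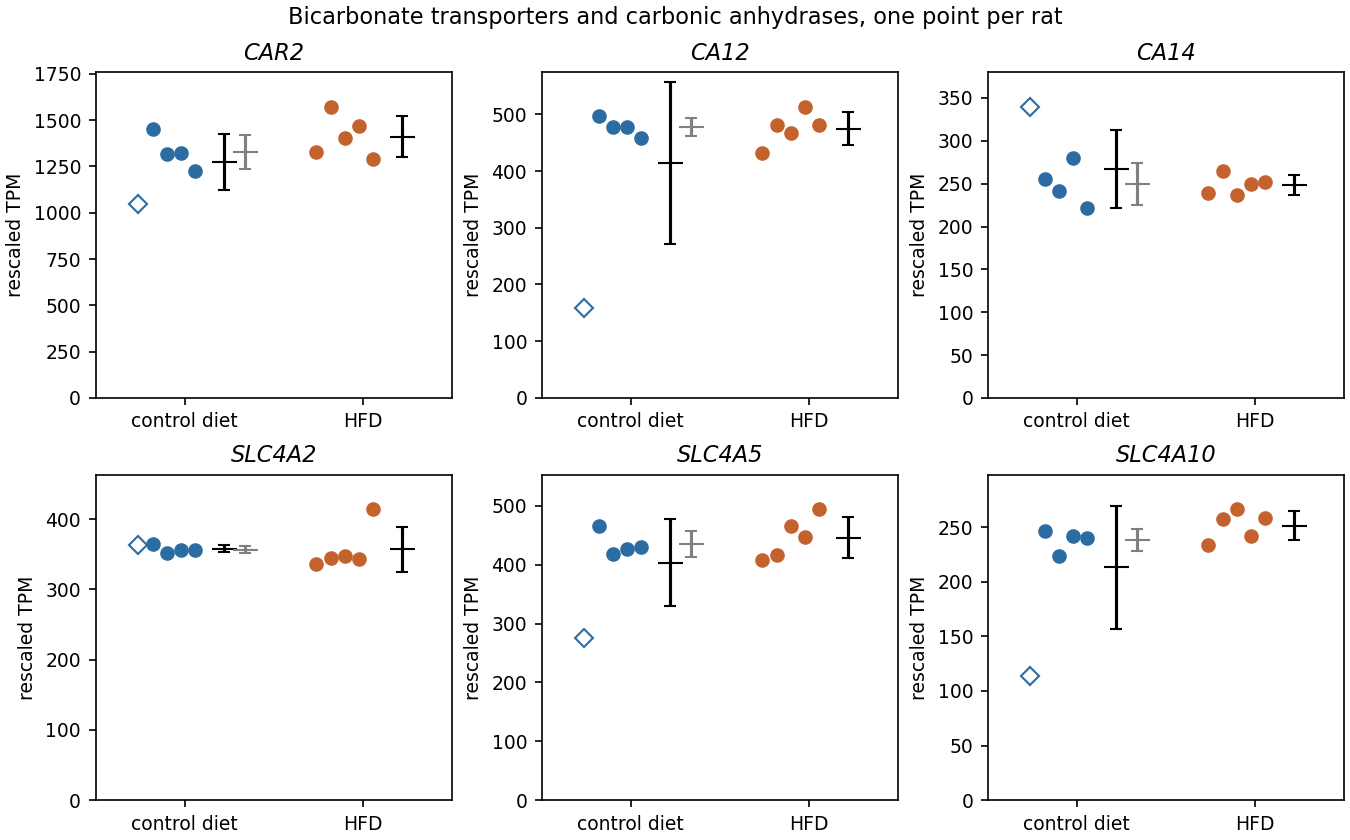
Rescaled TPM (vertical axes, from 0) of the 6 genes in each rat, with control rats in blue, HFD-fed rats in orange and control rat 1 as an open diamond; black bars are means ± SD of 5 rats and grey bars those of the 4 control rats without rat 1. CA12 was at 159 in control rat 1 and at 432 to 513 in the other 9 rats, while SLC4A2 was at 363 in control rat 1, inside the range of the others.

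Taken over the 6 genes, 0 had an adjusted p under 0.05 and 0 an unadjusted p under 0.05, where 8.62% of all genes tested had the latter and 0% the former. Among the 9 other rats the same counts were 0 and 0, against 11.8% and 0% of 12270 genes. No member had diets that did not overlap, with or without control rat 1, against 3.4% and 4.98% of all genes. The log2 fold change was above 0 for 4 members with all rats and for 3 without control rat 1, against 52.9% and 50.6% of all genes, and their median was 0.16 and 0.02, against 0.01 and 0.002 over all genes. In TPM as deposited 0 members had an unadjusted p under 0.05, against 5.11% of all genes, and all 6 were above 0, with a median of 0.26, where the median of all genes was 0.12 and 73% were above 0.

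The intervals of the differences depended on control rat 1, though hardly for SLC4A2. Without it, as folds of HFD over control, the 95% intervals ran from 0.949 to 1.19 for CAR2, from 0.912 to 1.08 for CA12 and from 0.898 to 1.11 for CA14. They ran from 0.907 to 1.099 for SLC4A2, from 0.927 to 1.13 for SLC4A5 and from 0.973 to 1.14 for SLC4A10. With all 10 rats all 6 intervals were wider, from 0.962 to 1.29 for CAR2, 0.806 to 1.90 for CA12 and 0.799 to 1.1004 for CA14, and from 0.900 to 1.1006 for SLC4A2, 0.916 to 1.37 for SLC4A5 and 0.910 to 1.64 for SLC4A10.

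**Figure D2:**
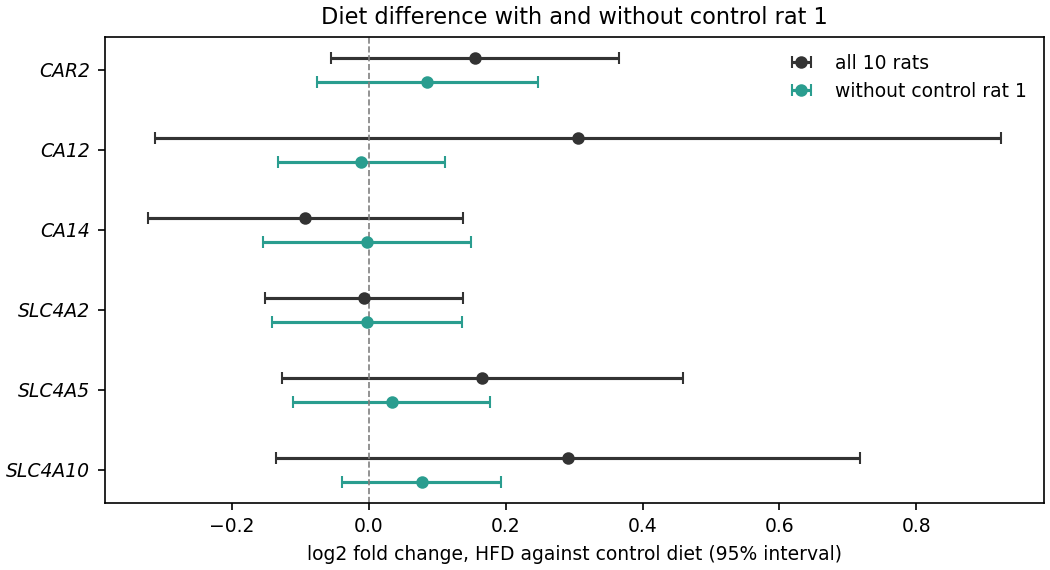
Log2 fold change of rescaled TPM + 0.1 between HFD-fed and control rats (horizontal axis) for the 6 genes, with 95% intervals from limma, for all 10 rats in black and without control rat 1 in green. All 12 intervals include 0, and CA12 moved from 0.31 to -0.01 and SLC4A10 from 0.29 to 0.08 when control rat 1 was left out.

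In rescaled TPM, control rat 1 lay outside the range of the other 9 rats for CAR2, CA12, CA14, SLC4A5 and SLC4A10 but not for SLC4A2. It was the lowest rat for CAR2, CA12, SLC4A5 and SLC4A10, as for 33.9% of all genes tested, and the highest for CA14, as for 32.1%. It was outside the range for 66% of all genes tested and for 72.8% of the 939 genes whose mean rescaled TPM reached 100. Relative to the median rescaled TPM of the other 9 rats, it had 33.3% for CA12, 46.8% for SLC4A10, 63.9% for SLC4A5, 78.7% for CAR2, 103% for SLC4A2 and 136% for CA14. CA12 and SLC4A10 were thus over 2-fold below the other rats, as were 12.2% of all genes and 3.09% of the genes of at least 100 rescaled TPM. In TPM as deposited the order of the 6 genes was the same, from 24.1% for CA12 to 99.02% for CA14, but control rat 1 was then below all other rats for SLC4A2 (272 against 327 to 467, or 73.8% of the median) and within their range for CA14 (254 against 224 to 291).

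Ratios between the 6 genes within a rat do not depend on the scaling, and the proportions of the genes were much alike in 9 of the 10 rats. Of the summed TPM of the 3 carbonic anhydrases, CAR2 held 63.6% to 67.8% in those 9 rats and 67.7% in control rat 1. CA12 held 20.8% to 24.1% in the 9 rats and 10.3% in control rat 1, and CA14 held 11.2% to 13.5% and 22.0%. The membrane-bound pair therefore stood in reverse order in that rat, with 0.470 CA12 transcripts per CA14 transcript against 1.70 to 2.07 in the others. Of the summed TPM of the 3 SLC4 genes, SLC4A2 held 32.2% to 35.5% in the 9 rats and 48.3% in control rat 1. SLC4A5 held 40.9% to 43.3% and 36.6%, and SLC4A10 held 22.1% to 25.2% and 15.1%.

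**Figure D3:**
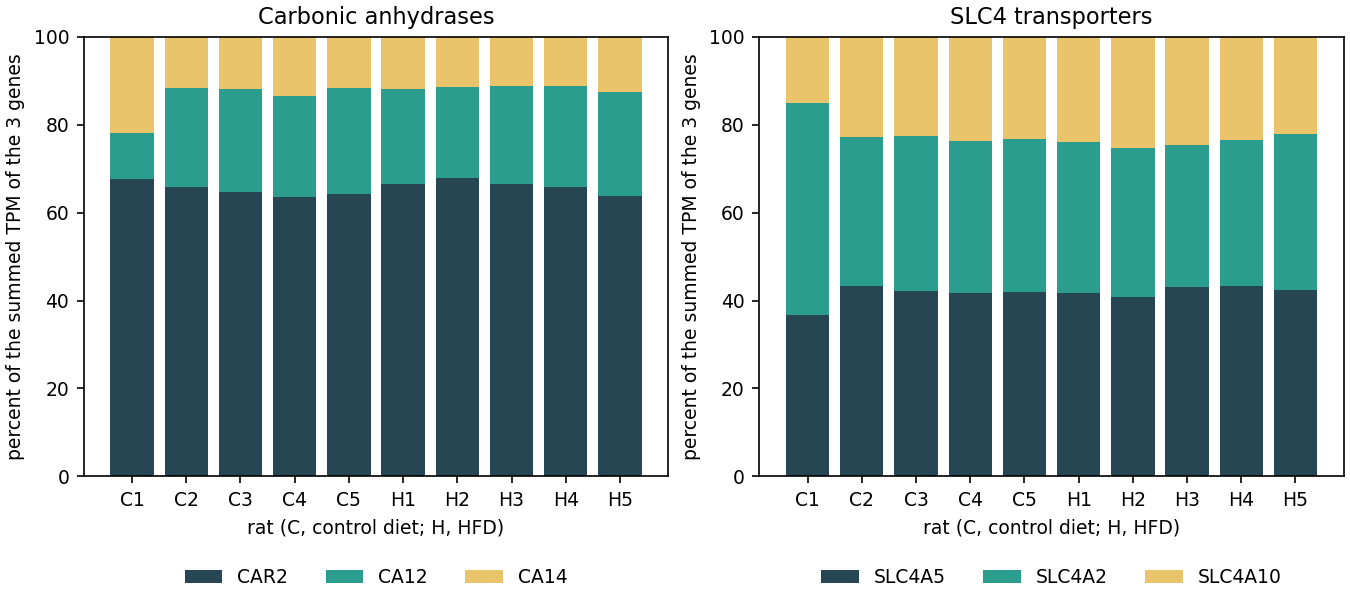
Percent of the summed TPM (vertical axes) that each gene held in each rat (C, control; H, HFD), on the left among CAR2, CA12 and CA14 and on the right among SLC4A5, SLC4A2 and SLC4A10. Control rat 1 (C1) had the smallest share of CA12, 10.3%, and the largest share of SLC4A2, 48.3%, and the other 9 rats had nearly the same bars.

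The diets did not separate these ratios. For the 15 pairs of genes, the log2 ratio was compared between diets by an exact two-sided permutation test, and 0 pairs had an unadjusted p under 0.05, with or without control rat 1. The smallest adjusted p over the 15 was 0.575 by this exact permutation test, and 0.847 without control rat 1. Control rat 1 was outside the range of the other rats for all 15 ratios. Without it, the largest difference between the diets was 0.10 on the log2 scale, for CAR2 over CA12, with 2.98 ± 0.218 (SD, n = 5) CAR2 transcripts per CA12 transcript after the HFD against 2.78 ± 0.0996 (SD, n = 4) after the control diet.

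TPM is corrected for length, so the levels of the genes can be ordered. By mean TPM the order was CAR2, CA12, SLC4A5, SLC4A2, CA14 and SLC4A10. The neighbouring pairs were taken from the order of these same values, so the tests set each ratio against its spread over the rats and are not independent evidence of the order. CAR2 was above CA12 in 10 of 10 rats, with a median ratio of 2.89 (exact paired permutation test, two-sided, adjusted p = 0.00488 over 5 neighbouring pairs). CA12 and SLC4A5 were not separated with all rats (median ratio 1.07, CA12 higher in 8 of 10 rats, exact paired permutation adjusted p = 0.926), but were without control rat 1 (exact paired permutation adjusted p = 0.0146, higher in 8 of 9 rats). SLC4A5 was above SLC4A2 in 9 of 10 rats, all except control rat 1 (median ratio 1.21, exact paired permutation adjusted p = 0.0326). SLC4A2 was above CA14 in 10 of 10 rats, with a median ratio of 1.42 (exact paired permutation adjusted p = 0.00488). CA14 and SLC4A10 were not separated, with a median ratio of 1.03 and CA14 higher in 7 of 10 rats (exact paired permutation adjusted p = 0.388, and 0.621 without control rat 1).

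Between the 9 rats without control rat 1, each gene varied little, as abundant genes commonly did. The coefficient of variation of rescaled TPM was 4.81% for CA12, 5.37% for SLC4A10, 6.36% for SLC4A2, 6.49% for SLC4A5, 6.93% for CA14 and 7.78% for CAR2. The median over the 964 genes of at least 100 mean rescaled TPM was 7.75%, with quartiles of 6.10% and 10.1%. Only CA12 and SLC4A10 lay below the lower quartile. With all 10 rats CA12 had 23.1%, SLC4A10 18.8%, SLC4A5 13.9%, CA14 12.7%, CAR2 10.8% and SLC4A2 6.03%, against a median of 12.3%.

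Values of the genes across these 9 rats were also compared after centring within each diet, where they share each rat's scaling factor. Pearson's r was positive for 13 of 15 pairs and ran from -0.36 to 0.77. SLC4A2 and SLC4A5 had the highest, r = 0.77 (exact permutation p = 0.00382, adjusted p = 0.0573) with Spearman's rho 0.67 (exact permutation p = 0.0226, adjusted p = 0.317), and 0 of the 15 pairs had an adjusted p under 0.05. For that pair r was 0.45 without the 2 rats farthest from the median of SLC4A2 and 0.23 with all 10 rats.

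Among 1985 named genes whose mean rescaled TPM reached 10, those most like each member in centred log2 values over the same 9 rats were as follows. For CAR2 they were IDH1 and HTR2C (r = 0.96 for each), where the 99th percentile of r over the 1985 genes was already 0.91, while it was 0.75 to 0.79 for the other members. For CA12 they were NDUFA3 (r = 0.90) and BOLA3 (r = 0.86), and for CA14 TIMM13 (r = 0.93) and RPS21 (r = 0.93). For SLC4A2 they were PSMB9 (r = 0.91) and CDR2 (r = 0.91), for SLC4A5 SCARB2 (r = 0.97) and ABHD2 (r = 0.96), and for SLC4A10 LOC100910944 (r = 0.89) and CLDN1 (r = 0.86). The likeness was not kept in control rat 1 by every one of these genes, since ABHD2 had 22.9% of the median of the other rats there and NDUFA3 had 142%, beside 63.9% for SLC4A5 and 33.3% for CA12.

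Other genes of bicarbonate and proton handling were taken from lists, of which only part had a symbol in the name columns used here. Among 13 other carbonic anhydrases, CA13, a cytosolic enzyme whose RefSeq gene (GRCr8) lies near Car2 on chromosome 2 with Car3 and Car1 between them, was the 1 with a symbol. Its rescaled TPM was 21.4 in control rat 1, 49.9 to 67.2 in the other control rats and 54.1 to 76.1 in the HFD-fed rats, and the diets overlapped. The log2 fold change was 0.39 (limma adjusted p = 0.600), and 0.09 without control rat 1 (limma adjusted p = 0.784). None of the 8 other SLC4 transporters or of the 11 SLC26 anion exchangers had a symbol, and they were not analysed here.

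The scaffold proteins SLC9A3R1 and EZR, which tie membrane transporters to the cytoskeleton, were the 2 of 13 genes with a symbol in the list of sodium-proton exchangers and scaffolds. SLC9A3R1 was lower in HFD-fed rats before adjustment, at 58.1 ± 3.77 against 66.5 ± 5.88 rescaled TPM (SD, n = 5 each), and its log2 fold change was -0.19 (limma unadjusted p = 0.0282, adjusted p = 0.556), while EZR had -0.02 (limma adjusted p = 0.919, and -0.02 without control rat 1). Without control rat 1, which had the highest level of SLC9A3R1, 75.9, its log2 fold change was -0.14 (limma unadjusted p = 0.0348, adjusted p = 0.384), and in TPM as deposited it was -0.09 and the unadjusted call was lost (limma unadjusted p = 0.323), as it was without control rat 4 or HFD-fed rat 4 (limma unadjusted p = 0.0611 and 0.0722). Of the regulators of bicarbonate transport, 3 of 8 had a symbol. AHCYL2, a relative of the IRBIT protein that acts on sodium bicarbonate cotransporters, was lower in HFD-fed rats before adjustment, at 140 ± 11.0 against 156 ± 6.55 rescaled TPM (SD, n = 5 each), and its log2 fold change was -0.16 (limma unadjusted p = 0.0408, adjusted p = 0.569). The value for AHCYL2 was -0.14 without control rat 1 (limma unadjusted p = 0.0471) and -0.05 in TPM as deposited, where the unadjusted call was lost (limma unadjusted p = 0.656). It was also lost without control rat 3 or 4 or HFD-fed rat 1, 2 or 4 (limma unadjusted p from 0.0684 to 0.0937). IRBIT itself, encoded by AHCYL1, had 0.05 (-0.01 without control rat 1) and the kinase STK39, which acts on cation-chloride cotransporters, had -0.06 (-0.03 without control rat 1), and neither passed an unadjusted p of 0.05. Of the monocarboxylate-proton cotransporters, 2 of 5 had a symbol, SLC16A8 with -0.34 (-0.23 without control rat 1) and its chaperone BSG with -0.08 (-0.05 without control rat 1), and with all 10 rats neither passed an unadjusted p of 0.05. SLC16A8 varied with the rats included, at -0.20 without control rat 2 and at -0.49 without control rat 3, where it passed that threshold (limma unadjusted p = 0.0174, adjusted p = 0.545). In these 4 lists, 0 genes passed the adjusted test, as for 0% of all genes, and at an unadjusted p under 0.05 HFD-fed rats had higher values for 3.78% and lower values for 4.84% of all genes. This split turned with the scaling, to 3.85% higher and 1.26% lower in TPM as deposited.

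The other genes of CSF secretion reported here all had a symbol, and 0 of 13 were higher and 3 of 13 lower in HFD-fed rats at an unadjusted p under 0.05, against 3.78% and 4.84% of all genes, while 0 passed the adjusted test. Their median log2 fold change was -0.007, against 0.01 over all genes, and -0.02 without control rat 1, against 0.002. In TPM as deposited the split was 1 higher (ATP1B2, 0.18) and 1 lower (FXYD1, -0.55), against 3.85% and 1.26% of all genes, with a median of 0.10 against 0.12 over all genes. FXYD1, a regulator of the sodium pump, had the widest difference, at 804 ± 101 against 1370 ± 755 rescaled TPM (SD, n = 5 each), and its log2 fold change was -0.65 (limma unadjusted p = 0.0297, adjusted p = 0.558). The control mean of FXYD1 held a value of 2715 in control rat 1 beside 936 to 1120 in the other control rats, and without that rat the log2 fold change was -0.37 (limma unadjusted p = 0.00278, adjusted p = 0.250). The unadjusted call of FXYD1 was lost when HFD-fed rat 1, 2 or 4 was left out (limma unadjusted p from 0.0521 to 0.0652). KCNE2, a potassium channel subunit, had -0.19 (limma unadjusted p = 0.0354, adjusted p = 0.569), and -0.09 in TPM as deposited (limma unadjusted p = 0.518). Its call was also lost without control rat 2, 3 or 5 or HFD-fed rat 1 or 5 (limma unadjusted p from 0.0743 to 0.0944). TRPV4, a calcium-permeable channel, had -0.38 (limma unadjusted p = 0.0465, adjusted p = 0.571). The call of TRPV4 was lost without control rat 1, which had 102 rescaled TPM beside 52.0 to 70.0 in the other control rats (-0.24, limma unadjusted p = 0.0777), in TPM as deposited (-0.28, limma unadjusted p = 0.113), and without control rat 3 or 5 or HFD-fed rat 1, 2 or 3 (limma unadjusted p from 0.0706 to 0.113). The other 10 genes had values from -0.07 (SLC12A4) to 0.29 (ATP2B3), with ATP1B1 at -0.01 and CLIC6 at 0.03. Without control rat 1, SLC12A4 was at -0.02, ATP2B3 at 0.11, ATP1B1 at -0.06 and CLIC6 at 0.08.

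Without control rat 1, 1 of the 13 genes was higher and 4 were lower at an unadjusted p under 0.05, against 5.53% and 6.25% of all genes, and again 0 passed the adjusted test. ATP1B2, a subunit of the sodium pump, was at 101 to 111 rescaled TPM in control rats 2 to 5 and at 115 to 138 in the HFD-fed rats, a log2 fold change of 0.21 (limma unadjusted p = 0.00399, adjusted p = 0.263). With control rat 1, at 172, the groups overlapped and the value was 0.08. The lower genes were FXYD1, KCNE2 (-0.23), the potassium channel KCNK1 (-0.17) and the water channel AQP1 (-0.18). The last 2 calls rested on leaving out control rat 1, since with all 10 rats KCNK1 had -0.04 (limma unadjusted p = 0.731) and AQP1 -0.05 (limma unadjusted p = 0.726), and in TPM as deposited they had 0.058 and 0.054. SLC12A2, the sodium-potassium-chloride cotransporter of the luminal membrane, was at 198 ± 21.1 in control and 215 ± 21.1 in HFD-fed rats (SD, n = 5 each), with a log2 fold change of 0.12 over all 10 rats (limma adjusted p = 0.616) and 0.05 without control rat 1 (limma adjusted p = 0.814).

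**Figure D4:**
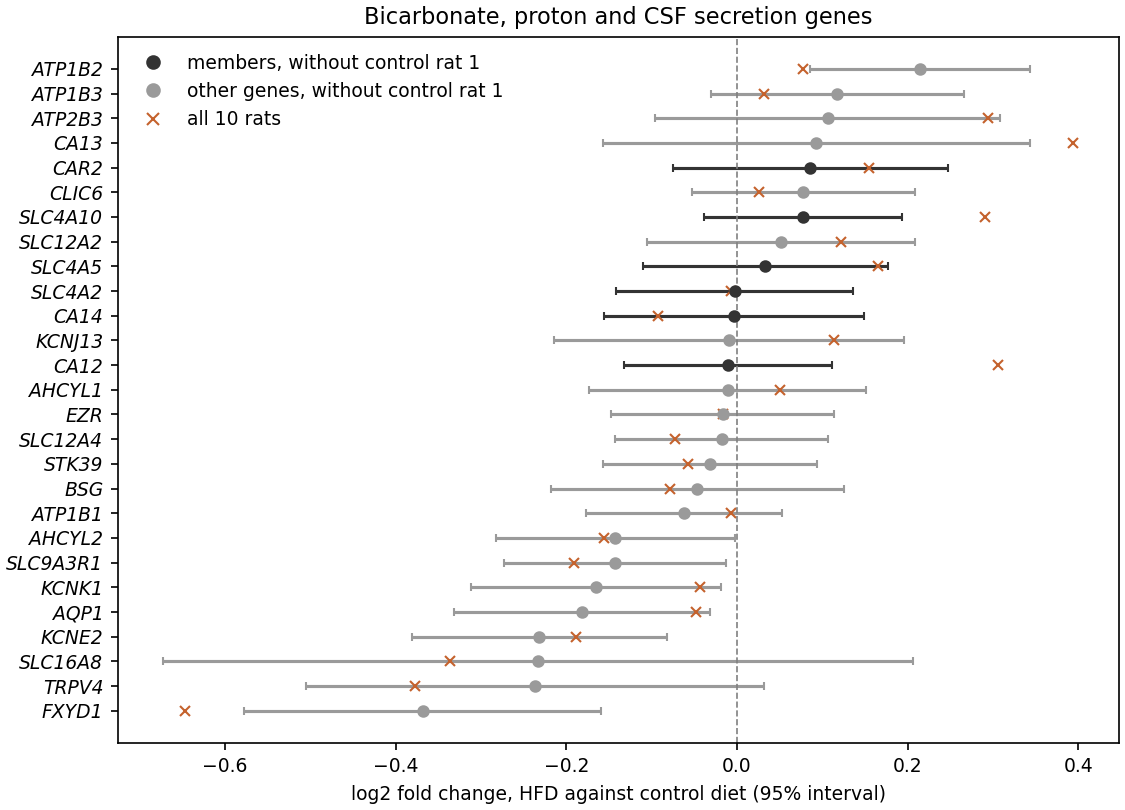
Log2 fold change of rescaled TPM + 0.1 between HFD-fed and control rats (horizontal axis) for the 6 genes (black) and 21 related genes (grey), without control rat 1 and with 95% intervals from limma, and for all 10 rats as orange crosses. The 6 genes lie between -0.01 and 0.09 without control rat 1, and FXYD1 has the lowest value, -0.37.

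Control rat 1 lay apart in several of these genes too, in either direction. CA13 had 32.5% of the median rescaled TPM of the other 9 rats there, close to the 33.3% of CA12. The potassium channel KCNJ13 was at 508 in control rat 1 and at 692 to 850 in the other control rats, and AQP1 at 369 and at 545 to 651. ATP2B3, a calcium pump, was at 99.05 and 173 to 199. FXYD1 and ATP1B2 were above the other rats.

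**Figure D5:**
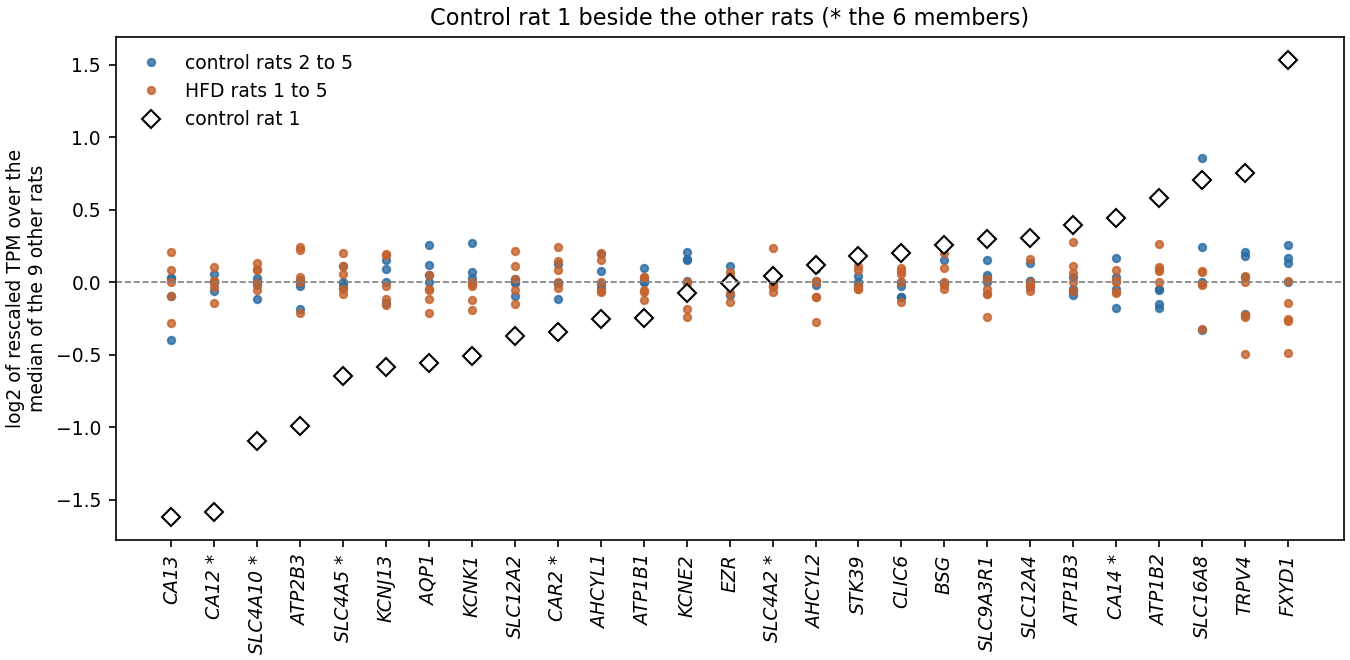
Log2 of rescaled TPM over the median of the 9 rats other than control rat 1 (vertical axis) for the 6 genes (marked *) and 21 related genes, ordered by the value of control rat 1 (open diamonds), with the other control rats in blue and HFD-fed rats in orange. CA12 (-1.58) and SLC4A10 (-1.09) lie among the lowest genes of control rat 1, CA14 (0.44) among the highest and SLC4A2 (0.04) near the other rats.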

How the data were processed

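RNA of the choroid plexus of 10 rats (5 control, 5 HFD, 1 library each) was sequenced in paired reads of 150 bases with a nominal output of 12 Gb per library. The submitters' processing notes name STAR 2.7.2a, RSEM 1.3.3 and Rnor_6.0, while the study's methods give another version of STAR. The authors deposited, per gene and rat, TPM and FPKM rounded to 2 decimals. The deposited FPKM were a constant multiple of the TPM within a rat, so TPM were used throughout, and FPKM only for 1 alternative fit and for the effective transcript length. Raw counts were not used here. Steps of single reads were sought in low FPKM, but at most 14.8% of genes shared 1 step, so depth is unknown and no counting error is given, and genes with near-identical copies can share reads in RSEM.

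TPM were divided by each rat's median ratio over 12037 genes. Genes whose mean rescaled TPM reached 1 were fitted as log2(TPM + 0.1) with limma 3.58.1 (lmFit, eBayes with trend, R 4.3.3), with diet as the only term, in place of the count model of the study, since the deposited unit was not counts. Counts of genes called here hold for this unit and model, and the study's count model did call genes as different between the diets. Single genes and ratios were tested by exact two-sided permutation over 252 assignments (126 without control rat 1). The limma step was checked on simulated data. Tables, tests and plots were made in scipy 1.17.1, pandas 2.3.3, matplotlib 3.10.9 and numpy 2.4.6 under python 3.11.15.

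The members and lists were chosen with earlier results of these data known. Symbols came from the name columns of the study's gene tables, a copy shortened to its most abundant genes (2001 identifiers, with 7 symbols held by more than 1 identifier left out). Named were the 6 members, SLC4A1, CA1, CA4, SLC4A4 and SLC4A7 at any level (none had a symbol here), the genes of the lists with a symbol and a mean of at least 10, and for each member the 2 genes of highest Pearson r. Some other genes of the rule and lists are not reported here. Alternatives covered the scaling, the pseudocount, the filter, the variance model, a replicate block and leaving out each rat.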

Additional observations from a re-analysis of the deposited data

Results flagged for a closer look

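In groups of 5 rats, 60 sets of values were searched for a highest or lowest rat that was set off from its neighbour by more than 0.71 of the spread of the group. For independent sets, chance alone would give about 1 in 20, or 3 of 60, and 13 were found, of which 10 were control rat 1. The sets share the same rats and each rat's scaling factor, so they are not independent. The number found is therefore a description and not a test against chance.

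Among the 6 genes, control rat 1 was far below the other control rats for CA12 (159 rescaled TPM), SLC4A5 (275) and SLC4A10 (113), and HFD-fed rat 5 was far above the other HFD-fed rats for SLC4A2 (414). Among the properties of the libraries, control rat 1 had a low scaling factor (0.749), a high share of TTR (39.7% of TPM) and a low mean effective transcript length (789 bases). Among the other genes of CSF secretion, control rat 1 was high for ATP1B2 (172 rescaled TPM), ATP1B3 (244) and FXYD1 (2715) and low for ATP2B3 (99.05). HFD-fed rat 5 was low for SLC16A8 (74.4 rescaled TPM) and high for SLC12A4 (121), besides SLC4A2. The part of the library properties in the levels of the genes was not tested.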

How the results depend on the processing

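In 23 alternative fits, 0 of the 6 genes had an unadjusted p under 0.05, and CAR2, SLC4A5 and SLC4A10 stayed above 0 in each. Genes with an adjusted p under 0.05 numbered 0, but 1 without the filter on low genes (ENSRNOG00000045684, lower) and 3 with array weights (METRN, lower, FLNA and ENSRNOG00000052365, higher), all named after their values were seen. The 1051 genes with an unadjusted p under 0.05 became 624 with TPM as deposited, 622 at a mean of at least 10, where fewer genes were tested, and 1877 with array weights, and 792 to 1445 when 1 rat was left out (the highest without control rat 1). CA12 turned to -0.00066 with array weights, and ran from -0.011 (without control rat 1) to 0.40 when 1 rat was left out. CA14 turned to 0.0096 with TPM as deposited, 0.0097 after removing TTR from the total and 0.0079 as deposited without control rat 1, and ran from -0.16 to -0.0033 when 1 rat was left out. SLC4A2 turned to 0.095, 0.096 and 0.0086 in the same 3 settings and to 0.041 with FPKM, and ran from -0.062 to 0.013 when 1 rat was left out. With TPM as deposited, which raised the median of all genes from 0.01 to 0.12, these also turned above 0: EZR (0.086), STK39 (0.044), BSG (0.023), SLC12A4 (0.030), ATP1B1 (0.095), AQP1 (0.054) and KCNK1 (0.058). When 1 rat was left out, the sign also varied for EZR (-0.039 to 0.015), AHCYL1 (-0.011 to 0.10), ATP1B1 (-0.062 to 0.024), ATP1B3 (-0.018 to 0.12), AQP1 (-0.18 to 0.023), KCNJ13 (-0.0097 to 0.18) and KCNK1 (-0.17 to 0.030). Of the 13 other CSF secretion genes, 0 (without HFD-fed rat 1) to 5 (without control rat 1) had an unadjusted p under 0.05, against 3. Of the 15 ratios, 0 to 1 had an exact permutation p under 0.05, namely SLC4A2 over SLC4A5 without control rat 2, CA14 over SLC4A10 without control rat 5 and CAR2 over SLC4A2 without HFD-fed rat 5. Samples of the 2 diets share replicate numbers, and the main fit had no pairing. The correlation of same-numbered rats ran from -0.04 to 0.12. Differently numbered rats were not set beside it, so it does not settle whether rats were paired. A replicate block gave 1137 genes with an unadjusted p under 0.05, 0 with an adjusted one and 0 members. Apart from what is shown by construction, the cause of these changes was not tested.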

Other observations

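Of the 10 epithelial markers, 2 (KL and HTR2C) had an unadjusted p under 0.05 between the diets, and 0 an adjusted one. Over all genes, 8.62% had the former, 3.78% with higher values in HFD-fed rats. The log2 fold change was above 0 for 8 of the 10 markers, with a median of 0.10 (0.06 without control rat 1), against 52.9% of all genes and a median of 0.01 (0.002 without control rat 1), and the other two were FOLR1 (-0.16) and TTR (-0.10). Without control rat 1, FOLR1 (-0.09), OTX2 (-0.04) and KCNJ13 (-0.0097) were below 0 and TTR was at 0.04, while 50.6% of all genes were above 0. KL, the membrane protein klotho, was at 272 rescaled TPM in control rat 1, at 379 to 414 in the other control rats and at 420 to 463 in the HFD-fed rats, so that the diets did not overlap with or without control rat 1, as was so for 3.4% and 4.98% of all genes. The log2 fold change was 0.27 (limma unadjusted p = 0.0314, adjusted p = 0.565) and 0.16 without control rat 1 (limma unadjusted p = 0.00642, adjusted p = 0.286), and the unadjusted call was lost in TPM as deposited (0.38, limma unadjusted p = 0.0686). HTR2C, a serotonin receptor and one of the genes most like CAR2 across the 9 rats, was at 376 in control rat 1, at 373 to 425 in the other control rats and at 420 to 525 in the HFD-fed rats, and the diets overlapped. Its log2 fold change was 0.21 (limma unadjusted p = 0.0173, adjusted p = 0.540) and 0.19 without control rat 1 (limma unadjusted p = 0.0228, adjusted p = 0.354).

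Of the 3 ependymal markers, CCDC113, a protein of motile cilia, was at 51.4 rescaled TPM in control rat 1, at 54.1 to 63.2 in the other control rats and at 41.1 to 58.1 in the HFD-fed rats. Its log2 fold change was -0.28 (limma unadjusted p = 0.0170, adjusted p = 0.540). CCDC113 was the 1 of 3 ependymal markers that was lower at an unadjusted p under 0.05, against 4.84% of all genes. Its value was -0.32 without control rat 1. In TPM as deposited it was -0.17 and the unadjusted call was lost (limma unadjusted p = 0.318). CCDC65 had -0.07 with all rats, -0.04 without control rat 1 and 0.04 in TPM as deposited. RSPH1 had -0.14, -0.005 and -0.04 in the same order. RSPH1 was at 117 rescaled TPM in control rat 1 and at 67.5 to 82.4 in the other control rats. The part of the share of ependyma in the tissue was not tested. KL, HTR2C and CCDC113 were singled out after their values were seen.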
